A study of Homo sapiens with 2 samples.

Results

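The mRNAs of 10 receptor tyrosine kinases, EGFR, ERBB2, ERBB3, MET, IGF1R, INSR, EPHA2, EPHB2, EPHB4 and DDR1, were compared in HCT116 cells with and without knockdown of LAST. They were taken by gene symbol, and each of the 10 had 1 record among the 11420 protein-coding gene records of the deposited table. HCT116 is a human colorectal carcinoma cell line. LAST is a long noncoding RNA induced by c-Myc. Lentiviruses delivered shRNA against LAST to one culture and control shRNA to the other, and total RNA was taken 96 hr after infection. By the methods of the study, the LAST shRNA of the sequenced cells was shRNA-1 alone. There was 1 library with control shRNA and 1 with LAST shRNA, both of the same cell line and both infected, so the differences below were not replicated and could not be tested. The study asked which mRNAs depend on LAST, and its main gene was CCND1, which encodes cyclin D1. LAST itself was not analysed here, so the knockdown was not checked in these libraries.

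Receptor tyrosine kinases are single-pass membrane proteins with a ligand-binding part outside the cell and a kinase inside. In many of them ligand binding brings receptor chains together. The kinases phosphorylate tyrosines on each other, and adaptors that bind these tyrosines start the RAS to ERK and the PI3K to AKT pathways. Through these pathways growth factors raise cyclin D1. In the intestinal epithelium EGFR and its relatives drive growth, MET carries the signal of hepatocyte growth factor, the EPH receptors sort cells by contact with ephrins on their neighbours, and DDR1 senses collagen. The members thus differ outside the cell and resemble each other inside it, in the kinase with its catalytic loop.

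The coding sequence of that loop is shown for all 10 members. The only stretch shared between members in the search by windows of 50 bases described below began there. ERBB3, a receptor with an impaired kinase, departs from the rest in it. Each stretch has 24 bases from the longest coding transcript in GENCODE release 29, with the codon of the catalytic residue in capitals.
EGFR: caccgcGACctggcagccaggaac
ERBB2: cacaggGACttggccgctcggaac
ERBB3: catagaAACctggctgcccgaaac
MET: cacagaGACttggctgcaagaaac
IGF1R: cacagaGACcttgctgcccggaat
INSR: catcggGACctggcagcgagaaac
EPHA2: caccgtGACctggctgcccgcaac
EPHB2: caccgtGACctggctgcccgcaac
EPHB4: caccgaGACctggctgctcgcaac
DDR1: catcggGACctggccacgcggaac
In 9 members the capitals spell an aspartate codon, and in ERBB3 they spell AAC, a codon for asparagine. The stretch was identical over all 24 bases between EPHA2 and EPHB2, and EPHB4 matched each of them at 22 bases. INSR and IGF1R, which are close relatives as proteins, matched at 15 bases, the lowest number of any pair together with MET and DDR1.

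Sequence shared between the receptors in windows of 50 bases, a length set here, was nonetheless small. When the longest coding transcript of each member was divided into overlapping windows of 50 bases, 10 of the 3915 windows of EPHA2 (0.255%) also occurred in EPHB2, in 1 run of 59 bases that began with the catalytic loop, and no other pair of members shared a window. EGFR shared 138 windows (1.41%) with EGFR-AS1, a transcript of the opposite strand, and ERBB2 shared 145 (3.06%) with PGAP3, its neighbour on the opposite strand. EPHB4 shared 21 windows with SLC12A9 and MET 4 with other genes. ERBB3, DDR1, IGF1R and INSR shared none. The library kit keeps the strand, but whether strand was used in counting is not given in the sources used here.

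The receptors covered a wide range of levels, and MET and EPHA2 stood far above the others. Levels are given as FPKM, fragments scaled to transcript length and to the mapped fragments of the library, a unit that allows genes to be compared within a library. With control shRNA the order was MET (60.3), EPHA2 (60.0), DDR1 (15.1), EPHB4 (8.15), ERBB2 (7.20), EGFR (6.67), ERBB3 (3.24), INSR (3.01), IGF1R (1.44) and EPHB2 (1.18). With LAST shRNA the order was the same except that EGFR (6.36) stood above ERBB2 (5.90). MET and EPHA2 lay above 96.3% of all records each in the control library, whereas EPHB2 lay above 15.2%. With 1 library per group there is no spread against which neighbours in this order could be told apart. This holds above all for MET and EPHA2 in the control library and for ERBB2 and EGFR in both.

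**Figure D1:**
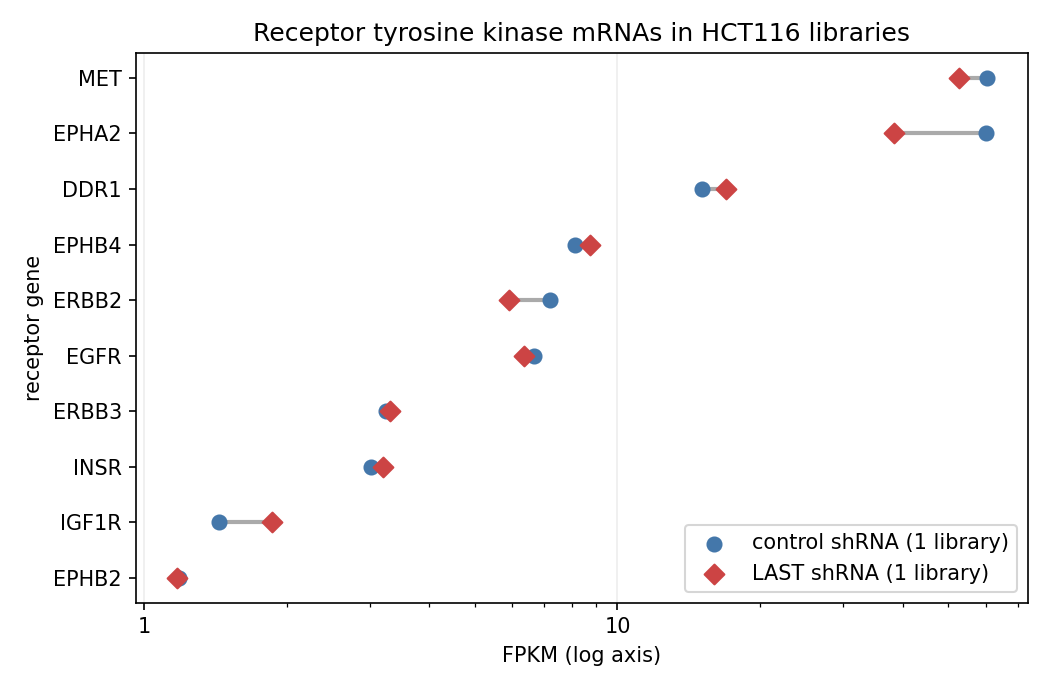
FPKM of the 10 receptor mRNAs (log axis) in the control shRNA library (circles) and the LAST shRNA library (diamonds), 1 library each, ordered by the control level. EPHA2 moved furthest, from 60.0 to 38.5, while EPHB2 and ERBB3 lay nearly on top of each other in the 2 libraries.

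EPHA2 was the only member past the threshold of the study. EPHA2 encodes a receptor for A-type ephrins that is abundant in many epithelial tumours. It was at an FPKM of 60.0 in the control library and at 38.5 in the LAST shRNA library, 1.56-fold lower. The log2 ratio was -0.63. All log2 ratios given here compare FPKM + 1 in the LAST shRNA library with FPKM + 1 in the control library, which understates differences of weakly expressed genes. The study counted a gene as lower at a log2 ratio of -0.58 or below, and the same distance above 0 was used here for higher genes. By this rule 1 of 10 members was lower and 0 were higher, beside 5.88% of all records lower and 6.80% higher. A count of 1 in 10 genes is close to this background and is no result about the receptors as a group. A ratio as low as that of EPHA2 or lower was found in 5.07% of all records.

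Large ratios were more frequent in the table among genes with 1 dominant exon, and EPHA2 is not such a gene. It lay on chromosome 1 from 16450832 to 16482582 (hg19, minus strand; ENSG00000142627.12_1) and overlapped no other record. Its longest coding transcript had 17 exons, the largest of which held 24.8% of the 3964 bases. Among the 5088 records in which no exon held 50% or more of the transcript, a class chosen after the data were seen, 3.11% were lower and 3.89% higher, against 9.67% and 10.4% where it held 70% or more. Among the 1711 records with a mean FPKM of 20 or more, the level class of EPHA2, 6.08% were lower and 5.79% higher. The records nearest to EPHA2 in their values over the 2 libraries were SNRPC (59.8 and 37.7), SFPQ (58.1 and 38.1) and NDUFB8 (61.9 and 39.3), at distances of 0.027, 0.048 and 0.055 in log2(FPKM + 1).

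**Figure D2:**
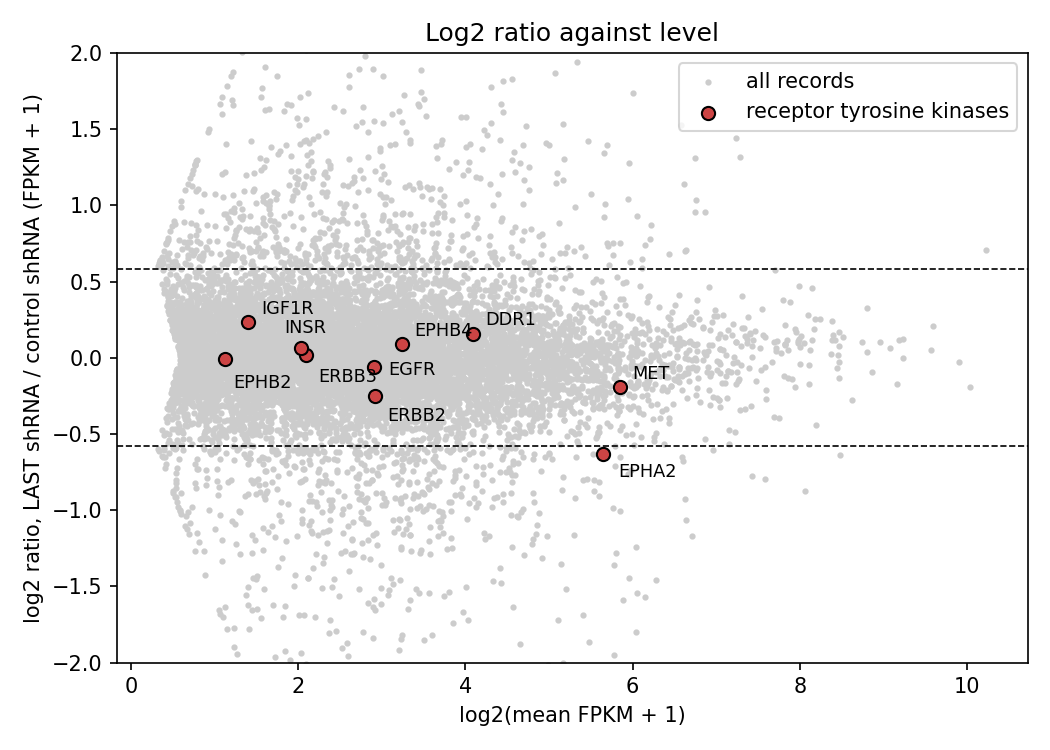
Log2 ratio (LAST shRNA against control shRNA, FPKM + 1) of all records (grey) and the 10 receptors (red) against log2(mean FPKM + 1), with dashed lines at -0.58 and 0.58; 136 records lie outside the plotted range of -2 to 2. Only EPHA2, at -0.63, lies beyond a dashed line, and the other 9 receptors lie between -0.25 and 0.23.

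The other 9 members lay between log2 ratios of -0.25 and 0.23, and 5 of the 10 were within 0.1 of 0, as were 28.9% of all records. The median log2 ratio of the members was 0.01, the same as that of all records to 2 decimals. For comparison by level, 6.79% of the 4211 records with a mean FPKM from 5 to under 20, the class of DDR1, EPHB4, ERBB2 and EGFR, were lower and 6.74% higher. Of the 5498 records under 5, the class of ERBB3, INSR, IGF1R and EPHB2, 5.13% were lower and 7.17% higher. The median distance from 0 was 0.12 for the members and 0.19 for all records. In all, 5 members were below 0 and 5 above it. Summed over the members, the control library held an FPKM of 166 and the other library 139, and without EPHA2 and MET the sums were 46.0 and 47.5. EPHA2 made up 36.1% of the sum with control shRNA and 27.8% with LAST shRNA.

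MET encodes the receptor of hepatocyte growth factor, which drives scattering and invasive growth of epithelial cells. MET (chromosome 7, 116312444 to 116438440) was at 60.3 with control shRNA and 52.6 with LAST shRNA, 1.15-fold lower (-0.19). It remained the most abundant of the 10 in both libraries, and the FPKM of EPHA2 relative to MET was 0.995 in the control library and 0.731 in the other. HGF itself, the ligand, had no record and was not analysed here. ST14, which encodes the membrane protease matriptase that activates the HGF precursor, was at 51.7 and 58.5 (0.17). SPINT1 and SPINT2, which encode its inhibitors, were at 24.5 and 26.0 (0.08) and at 42.4 and 46.3 (0.12).

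The ERBB receptors lay close to 0 or slightly below it. EGFR, the receptor of EGF and its relatives (chromosome 7, 55086714 to 55279321), was at 6.67 with control shRNA and 6.36 with LAST shRNA (-0.06). ERBB2, the relative without a known ligand that serves as partner of the others (chromosome 17, 37844167 to 37886679), was at 7.20 and 5.90, 1.22-fold lower (-0.25). ERBB3, the neuregulin receptor with the impaired kinase shown above (chromosome 12, 56473641 to 56497289), was at 3.24 and 3.30 (0.02). EGFR mRNA was thus at 0.926 of the level of ERBB2 in the control library and at 1.08 of it in the other, and at 2.06 and 1.93 of the level of ERBB3.

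ERBB2 was the member with the most crowded locus. Its end overlapped 1931 bases of MIEN1 on the opposite strand, which was at 13.8 with control shRNA and 6.97 with LAST shRNA (-0.90). Its start overlapped PGAP3, at 2.19 and 1.71 (-0.23). The direction of all 3 was the same. Windows of the longest coding transcript of ERBB2 occurred in PGAP3 (3.06%) but not in MIEN1. The part of reads from these neighbours in the ERBB2 value was not tested. The longest annotated transcript of ERBB2 had 31 exons, and the largest held 14.0% of its bases, the smallest share among the members.

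Of the 5 measured ligands of EGFR, EREG, AREG and TGFA were more abundant than the receptor in both libraries, and HBEGF and BTC were less abundant. No ligand of EGFR was lower past the threshold. EREG, epiregulin, was at 262 with control shRNA and 230 with LAST shRNA (-0.19). AREG, amphiregulin, was at 79.8 and 55.4, 1.44-fold lower (-0.52), which did not reach the threshold. The hg19 assembly holds a near-identical copy, AREGB, whose record was at 90.1 and 63.6 (-0.50), so the level of either copy alone is uncertain, and their sum was 1.43-fold lower. TGFA, transforming growth factor alpha, was at 16.1 and 13.4 (-0.24), and HBEGF was at 3.58 and 3.09 (-0.16). BTC, betacellulin, was the exception at 0.965 and 2.10 (0.66), higher past the threshold from a level under 1. The neuregulins NRG1 to NRG4, among which are the ligands of ERBB3, and EGF had no record and were not analysed here.

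**Figure D3:**
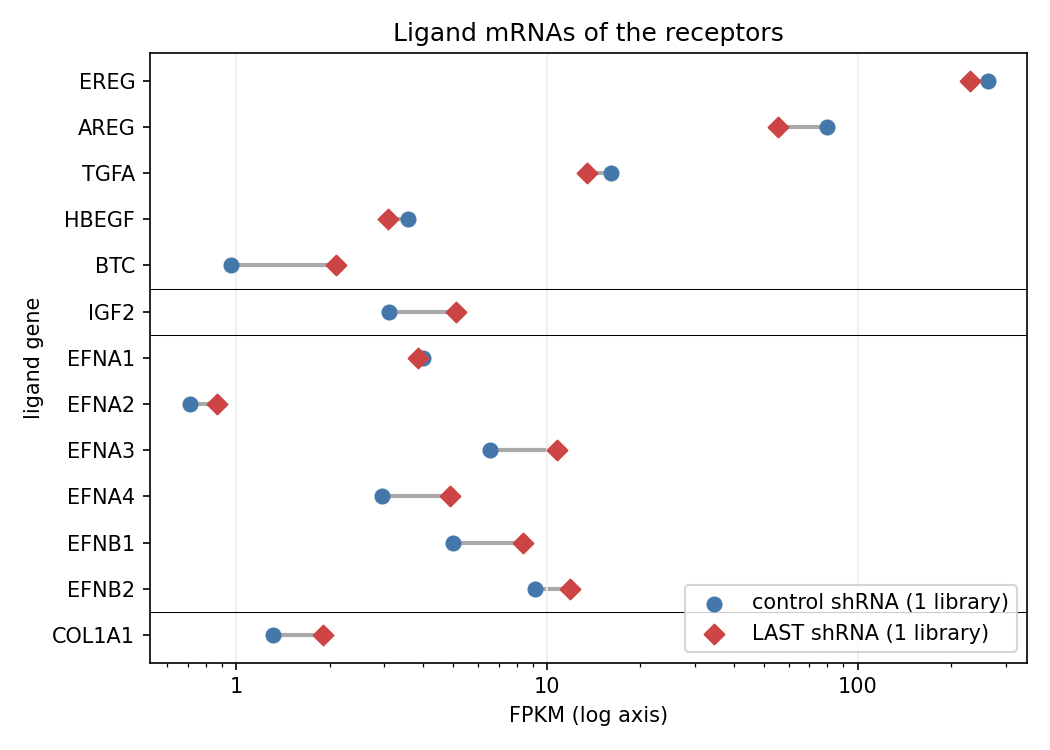
FPKM of the 13 measured ligand mRNAs (log axis) in the control shRNA library (circles) and the LAST shRNA library (diamonds), 1 library each. From the top, the blocks between horizontal lines hold ligands of EGFR, IGF2, the ephrins and COL1A1. EREG, AREG, TGFA and HBEGF have smaller values with LAST shRNA, none past the threshold, and EFNA3, EFNA4, EFNB1 and EFNB2 have larger values, of which EFNA3 and EFNB1 are past it.

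Receptors of the insulin family were weakly expressed. INSR, the insulin receptor (chromosome 19, 7112266 to 7294045), was at 3.01 with control shRNA and 3.19 with LAST shRNA (0.06). IGF1R, the receptor of the insulin-like growth factors (chromosome 15, 99192200 to 99507759), was at 1.44 and 1.87, 1.30-fold higher (0.23), the highest ratio of the members. The FPKM of INSR relative to IGF1R was 2.09 in the control library and 1.71 in the LAST shRNA library. For these mRNAs the largest exon held 57.6% and 61.1% of the transcript.

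Some of the named partners of these receptors differed more between the libraries than the receptors did, and others did not. IGF2, the growth factor that binds IGF1R and one form of INSR, was at 3.10 with control shRNA and 5.11 with LAST shRNA (0.576), just short of the threshold. In the annotation 79.1% of its windows also belong to a second gene entry with the same symbol, so its level is uncertain. IGFBP6, a binding protein that prefers IGF2, was at 20.8 and 31.8 (0.59), just past the threshold and just short of it with the median log2 ratio of all records set to 0. IGF2R, which clears IGF2 from the cell surface, was at 6.38 and 5.01 (-0.30), and IGFBP2 was at 15.0 and 14.1 (-0.08). IRS1, the main docking protein of both receptors, was at 5.40 with control shRNA and 2.63 with LAST shRNA, 2.05-fold lower (-0.82), while its relative IRS2 was at 3.10 and 2.98 (-0.04). The larger exon of IRS1 held 50.8% of a transcript of 2 exons.

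EPHB4 and EPHB2, receptors for B-type ephrins, did not share the lower level of EPHA2. EPHB4 (chromosome 7, 100400187 to 100425143, minus strand) was at 8.15 with control shRNA and 8.73 with LAST shRNA (0.09). EPHB2, which marks progenitor cells at the base of intestinal crypts (chromosome 1, 23037332 to 23247993), was the least abundant member, at 1.18 and 1.17 (-0.01). EPHA2 mRNA was at 7.36 times the level of EPHB4 in the control library and at 4.40 times in the LAST shRNA library. The largest exon held 72.5% of the EPHB2 transcript, the highest share among the members.

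Of the 6 measured ephrins, the membrane-bound ligands of these receptors, EFNB1 and EFNA3 were higher past the threshold and 0 were lower, beside 6.80% of all records higher and 5.88% lower. EFNB1 was at 4.98 with control shRNA and 8.37 with LAST shRNA, 1.68-fold higher (0.65). EFNA3 was at 6.56 and 10.8 (0.65), and EFNA4 was at 2.95 and 4.90 (0.579), just short of the threshold. EFNB2, the ligand of EPHB4, was at 9.18 and 11.9 (0.34), EFNA2 was at 0.710 and 0.872 (0.13), and EFNA1 was at 3.99 and 3.86 (-0.04). The 4 A-type ephrins summed to an FPKM of 14.2 in the control library and 20.5 in the LAST shRNA library, while EPHA2 was lower. EFNA3 shared 46.4% and EFNA4 11.5% of their windows with a joint transcript of the locus, and EFNB2 shared 21.7% with another gene, so these levels are uncertain. EFNB1 shared none, although its largest exon held 57.5% of the transcript.

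DDR1, the collagen receptor of epithelial cells (chromosome 6, 30844198 to 30867933), was the third most abundant member. It was at 15.1 with control shRNA and 16.9 with LAST shRNA, 1.12-fold higher (0.16). No record overlapped it, and its largest exon held 24.1% of the transcript. Of the 5 collagen genes listed, COL1A1 was the only one with a record, at 1.32 and 1.90 (0.33).

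Most of the other measured receptor tyrosine kinases also lay between the thresholds. Of 48 listed beside the 10 members 23 had a record. Among these 23, 1 was higher (4.35%) and 0 were lower past the threshold, and the median log2 ratio was 0.05. Of all records 6.80% were higher and 5.88% lower, so the count is near the background and is no result about these receptors. The higher gene was LMTK3, a member of the lemur kinases, at 1.56 with control shRNA and 5.16 with LAST shRNA (1.27). RYK, a Wnt receptor with an inactive kinase, was at 10.7 and 6.85 (-0.573), just short of the threshold. It passed with pseudocounts of 0.5 and 0.1, with the median log2 ratio of all records set to 0 and with TPM, which gave 1 lower gene in this list. AXL, the receptor of GAS6, was at 14.0 and 9.90 (-0.46). MST1R, the closest relative of MET, was at 8.04 and 6.78 (-0.22). MET and EPHA2 were the most abundant of all 33 measured receptor tyrosine kinases, and the 25 others, among them ERBB4, KIT and the PDGF receptors, had no record and were not analysed here.

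Below the receptors, most genes of the RAS to ERK and PI3K to AKT pathways lay between the thresholds. The RAS to ERK list is shown only in part, so no count is given for it. SHOC2, a scaffold of the pathway, was at 6.36 with control shRNA and 11.7 with LAST shRNA (0.79). MAP2K1, the kinase MEK1, was at 23.3 and 25.5 (0.12). Of the 24 PI3K, AKT, mTOR and FOXO genes shown 1 was lower (4.17%) and 0 were higher, with a median of -0.03. Of all records 5.88% were lower and 6.80% higher, so this count is near the background. The lower gene was the kinase MTOR at 11.5 and 7.33 (-0.582), just short of the threshold with upper quartiles made equal, whereas the kinase AKT1 was at 11.4 and 11.0 (-0.05).

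Of 25 adaptors and proximal effectors of the receptors 3 were higher and 1 was lower, with a median of 0.13, beside 6.80% of all records higher and 5.88% lower. PTPN11, the phosphatase SHP2 that several of these receptors use to activate RAS, was at 34.0 with control shRNA and 65.4 with LAST shRNA (0.92). SHC1, an adaptor of EGFR, ERBB2, MET and the insulin receptor family, was at 16.0 and 29.1 (0.82). GRB2, which links the receptors to the RAS activator SOS1, was at 42.2 and 42.3 (0.00), and SOS1 was at 4.38 and 3.60 (-0.23). The third higher adaptor was FRS2, at 0.810 and 1.87 (0.67), and the lower one was IRS1. The largest exon held 67.0% of the PTPN11 transcript and 46.9% of that of SHC1. SHC1 overlapped PYGO2 on the same strand, which was at 10.4 and 10.6. PTPN11 overlapped RPL6 on the opposite strand, which was at 145 and 156 (0.11). SHC1 shared 18.1% of its windows with PYGO2 and other genes, and PTPN11 shared 6.94% with other genes. The effect of this on their levels was not tested.

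**Figure D4:**
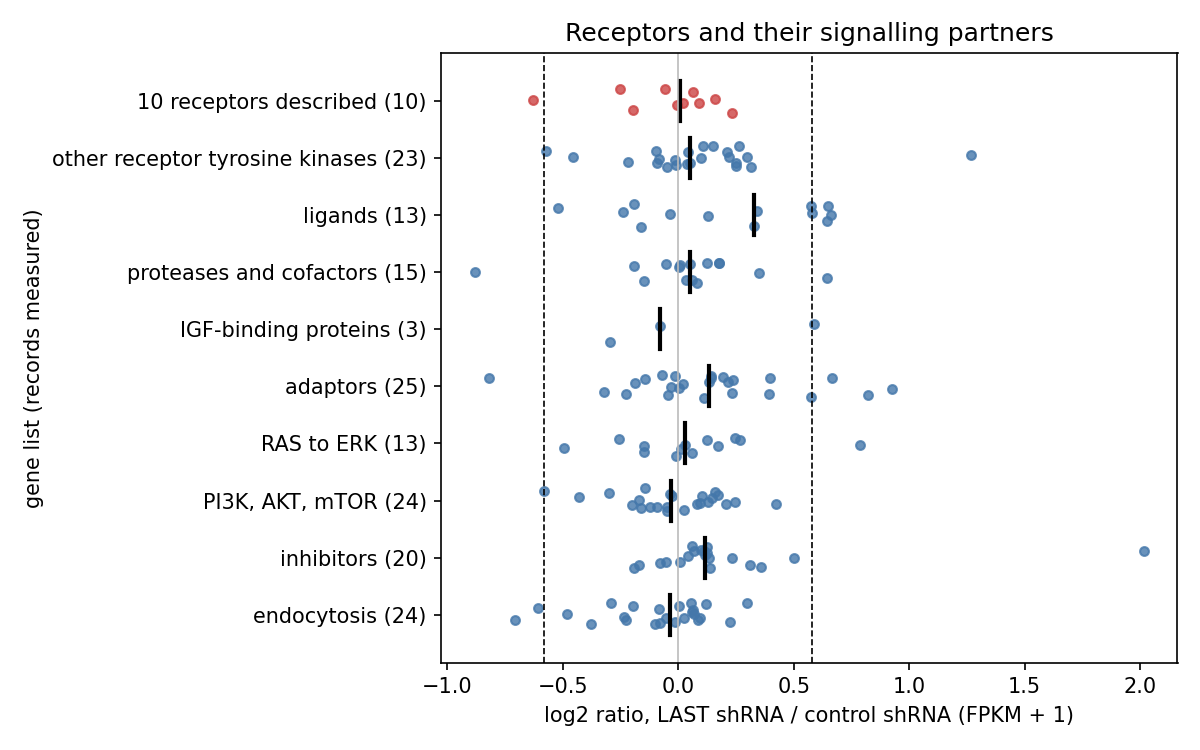
Log2 ratio (LAST shRNA against control shRNA, FPKM + 1) of the measured genes in 10 lists (RAS to ERK and PI3K to AKT shown in part), with the median of each list as a black bar and dashed lines at -0.58 and 0.58; vertical scatter within a list has no meaning. The 10 receptors (red) have their median at 0.01, and the ligands have theirs at 0.33.

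Genes that limit, remove or otherwise regulate the receptors mostly lay between the thresholds. Of 20 inhibitors, ubiquitin ligases, phosphatases and related regulators, among them USP8 and SH3KBP1, 1 was higher (5%) and 0 were lower. The median was 0.11. This stands beside 6.80% of all records higher and 5.88% lower, and is near that background. ERRFI1, the inhibitor of EGFR that the pathway itself induces, was very abundant at 190 with control shRNA and 180 with LAST shRNA (-0.08). PTPN1, a phosphatase of INSR and EGFR, was at 29.3 and 30.6 (0.06), and CBL, the ubiquitin ligase of EGFR and MET, was at 11.0 and 11.1 (0.01). SOCS4, an adaptor of ubiquitin ligases that can lower EGFR, was the higher gene, at 0.688 and 5.83 (2.02). Its largest exon held 96.4% of the transcript, and it did not pass the filter at an FPKM of 1 in both libraries. Of 24 genes of endocytosis and sorting 2 were lower (8.33%) and 0 were higher, with a median of -0.04, and the share lower was near the 5.88% of all records. The lower genes were RAB5A, the GTPase of early endosomes, at 14.9 and 8.74 (-0.71), and TSG101, which sorts receptors for degradation, at 15.5 and 9.86 (-0.61).

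Of 15 proteases that release ligands or activate receptors and their cofactors and inhibitors 1 was lower (6.67%) and 1 was higher (6.67%). The median was 0.05. Of all records 5.88% were lower and 6.80% higher, so these counts are near the background. PLAU, the urokinase that also activates HGF, was at 13.5 with control shRNA and 6.87 with LAST shRNA, 1.96-fold lower (-0.88). FURIN, which cuts the precursors of MET, INSR and IGF1R, was at 6.21 and 10.3 (0.64). ADAM17 and ADAM10, which shed the ligands of EGFR, were at 7.64 and 6.79 (-0.15) and at 9.45 and 10.8 (0.17). PLAU shared 19.9% of its windows with another gene.

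Across the ligand list as a whole 3 of 13 measured genes were higher (BTC, EFNB1 and EFNA3) and 0 were lower (23.1% and 0%, beside 6.80% and 5.88% of all records), with a median of 0.33 beside 0.01 for all records. Whether these shares differ was not tested. By kind of ligand, a split made after the values were seen, 4 of the 5 ligands of EGFR were below 0 and 5 of the 6 ephrins were above 0. Of the 4 measured ligands in which no exon held 50% or more of the transcript, 0 were past the threshold and the median was 0.05. With pseudocounts of 0.5 and 0.1, with TPM and with upper quartiles made equal, IGF2 and EFNA4 also passed it, and 5 of the 13 were higher.

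FPKM summed to 154798 in the control library and to 155390 in the other, which follows largely from the scaling of the unit. No counting error can be given since the number of reads is unknown. Of 12 epithelial markers 9 had a record, with summed FPKM of 848 in the control library and 900.2 in the other, led by KRT18 (271 and 294) and KRT8 (234 and 215). KRT20, a keratin of differentiated intestinal cells, was the only one past the threshold, at 0.767 and 3.62 (1.39), and the other 8 lay between CDX2 (-0.35) and CDH1 (0.45). Of 31 markers of stromal, immune and endothelial cells 5 had a record, and CD68, at 1.58 and 3.26 (0.72), was the highest of them with LAST shRNA. Nearly all windows of CD68 (97.4%) occurred in other genes. The other measured ones were FBLN1 (1.81 and 1.99), ACTA2 (0.919 and 1.25), COL1A1 (1.32 and 1.90) and ESAM (1.25 and 1.44). Their values were larger with LAST shRNA but short of the threshold. The remaining markers of these lists, among them PTPRC, PECAM1, COL1A2 and COL3A1, had no record. In bulk RNA, fewer cells of a kind and less RNA per cell cannot be told apart.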

How the data were processed

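KAPA stranded libraries, 1 per group, were made from total RNA of HCT116 cells. The submitters' processing notes name cutadapt, FastQC, HISAT2, StringTie and the build hg19. Their versions and settings were not given in the sources used here. The authors deposited FPKM values per gene, as the header of the table states, and every record had an FPKM of at least 0.5 in 1 of the libraries. No counts were used, so depth is unknown.

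Libraries were grouped by their titles. The log2 ratio was taken on FPKM + 1 without further scaling, with thresholds of -0.58 and 0.58. No test could be run on 1 library per group. The receptors, 9 pathway lists (160 genes measured) and 4 marker lists were chosen with earlier results of these data known. A few genes of the RAS to ERK and PI3K lists are not reported here and were left out after the results were known. Of these, 1 was past the threshold, so counts over all pathway genes leave it out. The named genes were the receptors, up to 3 genes per direction past the threshold in each list among genes with an FPKM of 1 or more in each library (the 2 most abundant where none passed), and the 3 records nearest to EPHA2. Other genes were named after their values were seen.

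Exons and transcript sequences were those of GENCODE release 29 (GRCh38), matched through gene identifiers for 99.1% of records. Positions were taken from the table (hg19). Coding frames were taken as the longest open frame of the longest coding transcript, and windows of 50 bases were searched on both strands of all annotated transcripts. The ratio and threshold functions were checked on simulated data. The alternatives were pseudocounts of 0.5 and 0.1, 3 other scalings, a filter at an FPKM of 1, a threshold of 1 and, added after the data were seen, a restriction to records with a largest exon under 50%. Protein sequences were not used here. Python 3.11.15, numpy 2.4.6, pandas 2.3.3, Biopython 1.88 and matplotlib 3.10.9 were used.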

Additional observations from a re-analysis of the deposited data

How the results depend on the processing

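The log2 ratios of the 10 receptors kept their side of the threshold with both pseudocounts and with all 3 other scalings. The filter and the exon restriction only remove records, so they could not move a ratio. EPHA2 ranged from -0.65 to -0.62, ERBB2 from -0.29 to -0.25, MET from -0.20 to -0.19 and IGF1R from 0.23 to 0.35. The median of the receptors lay between -0.09 and 0.01, on either side of 0. The value of -0.09 came from the exon restriction, which leaves out EGFR, INSR, IGF1R and EPHB2. In the main setting 672 of the 11420 records were lower and 777 higher, with 5 and 11 of the 160 measured pathway genes. At a threshold of 1, 0 receptors were lower, and over all records 286 were lower and 318 higher, with 0 and 2 of the pathway genes. Higher records numbered 1242 with a pseudocount of 0.1 and 1198 with TPM, and higher pathway genes 18 and 17. With a largest exon under 50%, 158 records were lower and 198 higher, and 3 and 2 of the pathway genes. Of 284 values for single lists and named partners 237 kept their place and 0 changed sign past the threshold. Among these, the ratios of single genes could not change under the filter or the exon restriction. No paired analysis was possible because each group had 1 library. The precision is limited by 1 library per group and an unknown depth.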
